A study of Mus musculus with 5 samples.

Results

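The genes described here belong to families that write, read, erase or remodel chromatin. They were chosen by name alone, as every locus with a single gene name beginning with Hdac, Sirt, Kdm, Smarc, Chd, Dnmt, Ezh, Cbx, Setd, Prdm, Arid or Brd and, where the family is numbered, a digit, together with Eed and Suz12. The rule found 97 of the 11644 loci with 1 gene name, in a table of 14053 loci, and 94 of them are described and counted below. A further 4 loci matched the pattern but carried joined names (Hdac10 with Tubgcp6, Chd8 with Supt16h, Cbx6 with Npcd and Nptxr, Brd8 with Kif20a) and were left out. The rule also sought Tet1, Tet2 and Tet3, and its prefixes cover Dnmt3l, Smarcd1 and Smarcd2, and these genes are not analysed here. For description the 94 genes were put into 14 families by known function.

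The study profiled poly(A) RNA of C57BL/6J mouse embryos in 5 tissues. The younger stage, E8.5 (days of embryonic development), is represented by foregut and medial foregut. The older, E10.5, is represented by dorsal pancreas, ventral pancreas and liver. The labels name no allele, transgene or treatment, and the sources used here do not say whether embryos were pooled or how tissue was isolated. Each tissue is 1 library, so no difference below has a replicate check, no test was possible and no p-value is given.

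Chromatin regulators set how tightly DNA is packed around histones and which regions can be read. DNA methyltransferases add methyl groups to cytosine, Polycomb complexes mark and bind histone H3 methylated at lysine 27, deacetylases and demethylases remove histone marks, and the SWI/SNF, CHD and ISWI ATPases move or evict nucleosomes. Most are widely expressed, and many complexes exchange one paralogous subunit for another during development. In the early endoderm, liver and pancreas arise from neighbouring parts of the foregut, and histone-modifying enzymes such as Ezh2 are known to bear on which genes of either organ become active.

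Values are FPKM, fragments for each kilobase of a transcript and each 1000000 mapped fragments, a level per length. A difference is one of log2(FPKM + 1), which understates ratios of low values. It was counted where it reached 1, a 2-fold difference in FPKM + 1, in the same direction for every pair of libraries compared and where every library on the higher side had at least 5 FPKM. The size given for a counted gene is its smallest difference over those pairs. Of the 94 genes, 83 reached 5 FPKM in at least 1 library, and they are read against all 8768 single-named loci that did. Where 5 values follow each other, their order is foregut, medial foregut, liver, ventral pancreas, dorsal pancreas.

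The libraries differed in makeup. Summed FPKM lay between 437581 and 506529, and 9590 to 10465 loci reached 1 FPKM, the fewest of them in liver. The labels were checked against marker lists. The 9 hepatic markers summed to 4884 FPKM in liver, 625 in ventral pancreas and 68.6 to 74.8 in the other libraries. The 6 pancreatic markers found summed to 122 FPKM in dorsal and 111 in ventral pancreas and to 2.42 to 22.7 elsewhere. The 8 cardiomyocyte markers found summed to 5162 FPKM in foregut and 8849 in medial foregut, against 487 in liver and 21.5 to 25.1 in the pancreatic libraries, with none of them at 0 in any library. In bulk tissue, fewer cells of a type and less RNA per cell cannot be told apart.

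The set was somewhat more abundant than all loci, and about as even across tissues. Its median FPKM, averaged over the libraries, was 23.3 against 15.1 for all loci. The most abundant was Chd4, the main ATPase of the NuRD complex, at 274 FPKM on average. The heterochromatin protein Cbx1 followed at 128, the deacetylase Hdac2 at 121 and the ISWI ATPase Smarca5 at 95.9. Between the lowest and the highest library the median gene of the set differed by 0.69 on the log2 scale, against 0.74 over all loci. This range was 1 or more for 27 of 83 genes (32.5%), against 36.6% of all loci. Brd7, a subunit of the PBAF form of SWI/SNF, had the narrowest range, from 36.3 to 39.2 FPKM.

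Of the 83 genes, 13 (15.7%) were counted in at least 1 of 7 comparisons, against 27.9% of all loci. They were Dnmt3a, Dnmt3b, Cbx2, Smarca2, Smarcd3, Chd3, Chd7, Arid3b, Arid5b, Setd7, Prdm1, Prdm6 and Prdm16. None of the 14 histone demethylases, 9 zinc-dependent deacetylases, 5 sirtuins, 4 core subunits of Polycomb repressive complex 2 (PRC2), 3 heterochromatin protein 1 genes, 3 genes of the group of BET proteins and Brd1, or 5 other SNF2-type genes was counted. The comparisons share libraries, so the counts below are not independent of each other.

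**Figure D1:**
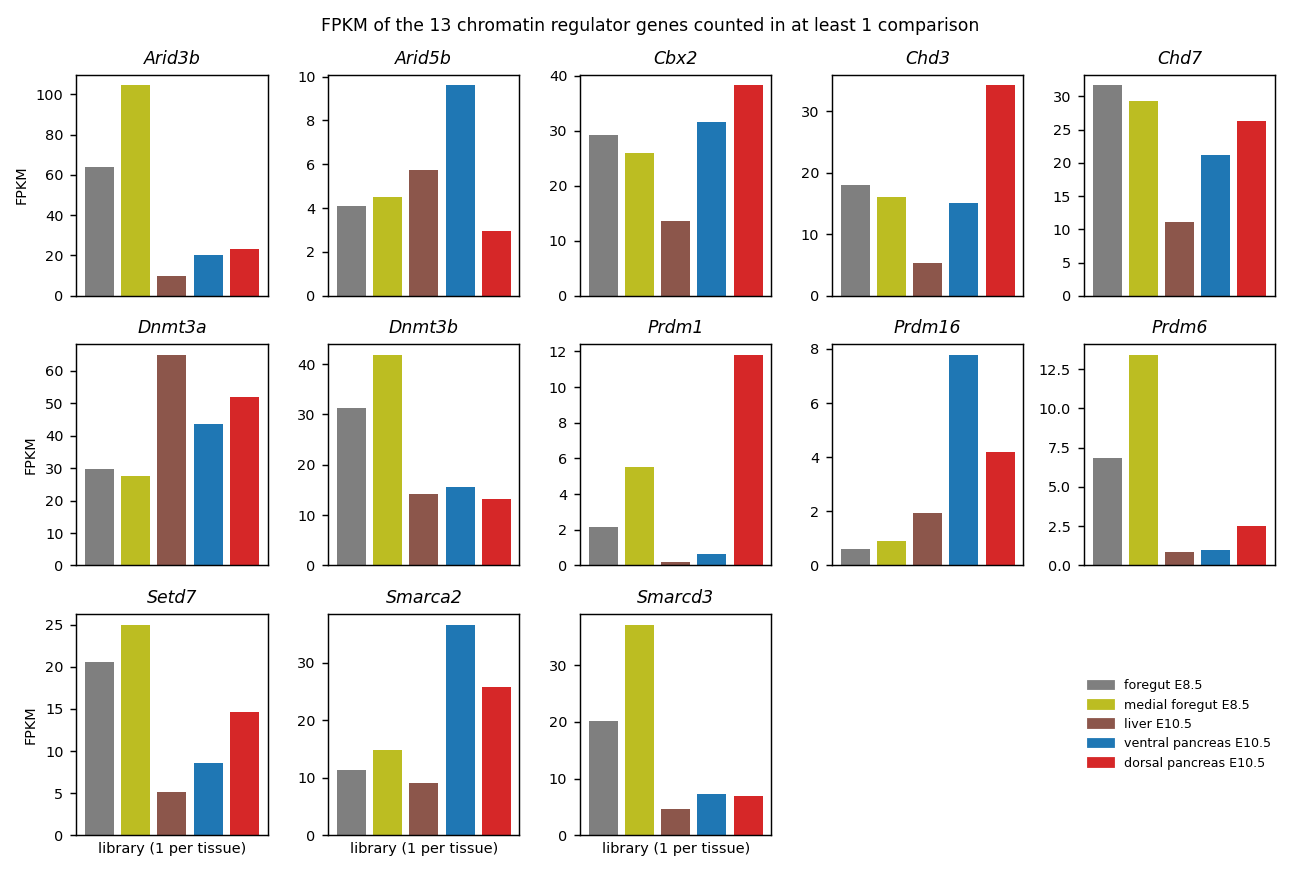
FPKM (vertical axes, each from 0 on its own scale) of the 13 counted genes, with 1 bar for each tissue's single library. Arid3b, Smarcd3 and Prdm6 have their 2 highest bars at E8.5, and Prdm1 has its highest in dorsal pancreas at 11.8 FPKM.

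The de novo DNA methyltransferases, which methylate unmarked DNA, differed in their proportions between the 2 stages. Dnmt3a measured 29.7, 27.6, 64.9, 43.5 and 52.0 FPKM. Dnmt3b measured 31.4, 41.8, 14.2, 15.6 and 13.3 FPKM. Every E10.5 library was thus above both E8.5 libraries for Dnmt3a and below both for Dnmt3b. Such a separation by any amount was not particular to this pair, as other genes of the set named with the promoters below shared it. Of the summed FPKM of the pair, Dnmt3a made up 48.6% and 39.8% at E8.5 and, in the E10.5 libraries in the same order, 82.1%, 73.6% and 79.7%. The 5 early embryo markers found summed to 79.5, 77.6, 48.9, 46.3 and 41.0 FPKM, and their part in the Dnmt3b values was not tested. Dnmt1, which copies methylation after replication, varied less, at 81.2, 66.9, 63.1, 57.1 and 80.2 FPKM. In the table Dnmt3a lies on chromosome 12, 3806583 to 3925515 (mm9, plus strand). The Dnmt3b locus, on chromosome 2 from 153475137 to 153555515 (plus strand), covers 210% of the annotated gene's span and overlaps an unnamed locus, so its value may hold reads of another transcript.

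The promoters of 4 genes are shown as examples. Their E8.5 and E10.5 values did not overlap, which does not set them apart. The same held for Setd7, Setd8, Hdac3, Hdac5, Hdac6, Kdm2b, Kdm4b, Kdm5d, Chd1, Chd7, Sirt2, Smarca1 and further genes of the set. How many of all loci share this was not counted. Arid3b and Smarcd3 are counted between the stages below, while the smallest differences of Dnmt3a (0.54) and Dnmt3b (-0.96) over all pairs are under the size counted. Each is the 250 bases before the gene's most upstream RefSeq start in GRCm38.p6, written 5′ to 3′ on the gene's strand, with CpG dinucleotides, the sites of DNA methylation, in capitals. They lie at chr12:3806730-3806979 (plus strand) for Dnmt3a, chr2:153649199-153649448 (plus) for Dnmt3b, chr9:57836780-57837029 (minus) for Arid3b and chr5:24602003-24602252 (minus) for Smarcd3.
Dnmt3a: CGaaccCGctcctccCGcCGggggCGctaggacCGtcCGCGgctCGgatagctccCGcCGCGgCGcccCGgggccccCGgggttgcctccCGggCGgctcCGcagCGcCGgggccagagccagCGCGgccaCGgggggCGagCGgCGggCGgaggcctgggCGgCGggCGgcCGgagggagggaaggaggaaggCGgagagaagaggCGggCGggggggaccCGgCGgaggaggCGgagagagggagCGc
Dnmt3b: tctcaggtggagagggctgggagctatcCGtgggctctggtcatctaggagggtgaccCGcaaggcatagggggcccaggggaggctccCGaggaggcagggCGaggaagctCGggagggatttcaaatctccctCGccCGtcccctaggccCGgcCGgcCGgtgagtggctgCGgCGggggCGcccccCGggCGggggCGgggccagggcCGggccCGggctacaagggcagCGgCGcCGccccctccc
Arid3b: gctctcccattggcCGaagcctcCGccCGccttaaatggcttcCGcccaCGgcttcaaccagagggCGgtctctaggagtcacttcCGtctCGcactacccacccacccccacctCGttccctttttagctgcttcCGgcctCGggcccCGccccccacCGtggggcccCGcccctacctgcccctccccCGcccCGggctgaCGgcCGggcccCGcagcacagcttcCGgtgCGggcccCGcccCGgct
Smarcd3: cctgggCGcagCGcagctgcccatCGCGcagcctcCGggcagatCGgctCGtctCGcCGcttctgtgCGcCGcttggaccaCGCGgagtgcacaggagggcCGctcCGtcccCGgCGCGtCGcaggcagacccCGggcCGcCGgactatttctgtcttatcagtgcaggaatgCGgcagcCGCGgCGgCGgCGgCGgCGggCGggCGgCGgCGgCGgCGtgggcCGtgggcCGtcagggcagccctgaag
Dnmt3a and Smarcd3 hold 38 CpG each, Arid3b 23 and Dnmt3b 21. Of the 94 genes, 77 have a promoter entry, with a median of 17 CpG and 61.2% GC, against 6 CpG and 52% GC over all 27025 promoters. Unlike the 8768 loci used elsewhere, these promoters were not limited to genes expressed here. The contrasts, with those of the letters below, are thus not with expressed genes. The GATA letters TGATAA, searched like the others on both strands and sharing no whole motif with them, were found in 3.9% of the 77 promoters (Arid1a, Sirt2 and Smarcd3) and in 8.12% of all. The TATA letters TATAAA were in 3.9% (Arid5b, Hdac9 and Kdm5d) against 13%, the letters CCAAT in 42.9% against 34.5%, and the E2F letters TTTCCCGC in 3.9% (Brd7, Sirt4 and Suz12) against 0.929%. A match describes letters only.

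Between the stages, 3 genes were lower in all 3 E10.5 libraries than in both E8.5 libraries, where 2.34% of all loci were, and none of the 94 was higher, where 0.981% of all loci were. The genes lower were Arid3b, Smarcd3 and Prdm6. Arid3b, a DNA-binding ARID protein needed for mid-gestation development, measured 64.0, 105, 10.03, 20.2 and 23.2 FPKM. Smarcd3 encodes BAF60c, a SWI/SNF subunit known for its role in heart development, and measured 20.1, 37.2, 4.66, 7.33 and 7.01 FPKM. Prdm6, known from smooth muscle, measured 6.81, 13.4, 0.866, 0.956 and 2.53 FPKM. All 3 were highest in medial foregut. By the counting rule itself, their E8.5 and E10.5 values could not overlap. The smallest differences were -1.42 for Arid3b, -1.34 for Smarcd3 and -1.14 for Prdm6, which was no longer counted with a pseudocount of 5 FPKM (-0.65). The cardiomyocyte marker sum was also highest in medial foregut. Among the E10.5 libraries it was largest in liver, at 487 FPKM against 5162 and 8849 at E8.5. Arid3b, Smarcd3 and Prdm6 were lowest in liver. The part of the cardiomyocyte sum in these results was not tested. The Smarcd3 locus (chromosome 5, 24092564 to 24130241, minus strand, mm9) overlaps Chpf2, and reads of the overlap cannot be assigned by strand. Arid3b lies on chromosome 9, 57638163 to 57684665 (minus strand, mm9), and overlaps no other locus.

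**Figure D2:**
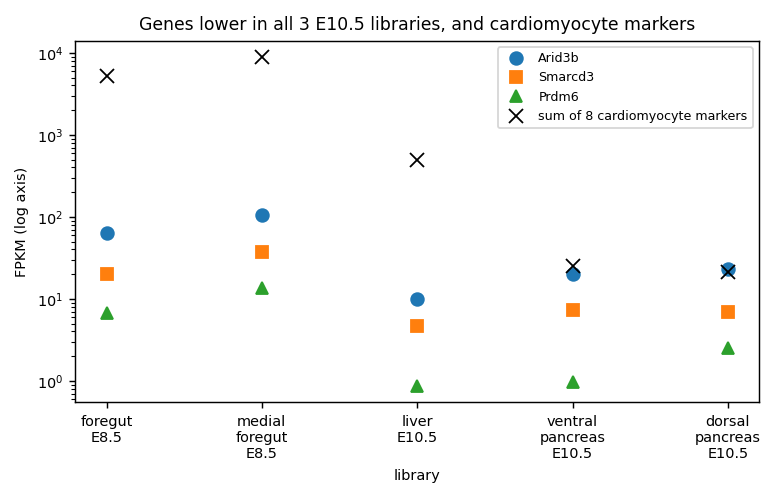
FPKM on a log axis of Arid3b, Smarcd3 and Prdm6 and the sum of 8 cardiomyocyte markers in the 5 libraries (horizontal axis). All 4 peak in medial foregut; among E10.5 libraries the marker sum is highest in liver, where the 3 genes are lowest.

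The chromobox proteins of Polycomb repressive complex 1 bind the mark that PRC2 sets. Cbx2 measured 29.1, 25.9, 13.5, 31.5 and 38.3 FPKM, lowest in liver. Cbx7 and Cbx8 stayed under 5 FPKM in all libraries, at 0.544 to 4.08 and 1.55 to 2.51, and the Cbx7 locus overlaps another.

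Taken tissue by tissue against both E8.5 libraries, liver had 1 gene higher, at a background of 6.98% of loci, and 7 lower, at 8.29%. The gene higher was Dnmt3a (1.11, or 0.97 and not counted with equal total FPKM). Among the 7 lower, Arid3b (-2.56), Prdm6 (-2.07) and Smarcd3 (-1.90) had the largest differences. Setd7, a lysine methyltransferase of histone H3 and other proteins, followed at 20.6, 25.0, 5.16, 8.59 and 14.6 FPKM (-1.81). The CHD ATPases Chd3 (-1.44) and Chd7 (-1.32) and Dnmt3b (-1.09) completed the list. Chd7, the gene mutated in CHARGE syndrome, measured 31.7, 29.3, 11.1, 21.2 and 26.3 FPKM. Liver was thus the lowest of the 5 libraries for Setd7, Chd3 and Chd7.

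Ventral pancreas had 2 genes higher than both E8.5 libraries, at a background of 8.37%, and 4 lower, at 4.45%. The higher ones were Prdm16 (2.21) and Smarca2 (1.26). Prdm16, a zinc-finger regulator known from brown fat and stem cells, measured 0.618, 0.904, 1.93, 7.79 and 4.21 FPKM. The lower ones were Prdm6 (-1.998), Arid3b (-1.62), Smarcd3 (-1.34) and Setd7 (-1.17). Dorsal pancreas had 0 genes higher, at a background of 5.76%, and 4 lower, at 3.84%. These were Arid3b (-1.42), Smarcd3 (-1.40), Dnmt3b (-1.18) and Prdm6 (-1.14). The genes lower in each E10.5 tissue against E8.5 thus include Arid3b, Smarcd3 and Prdm6 throughout, with the same E8.5 libraries on the other side each time.

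As deposited, liver held the lowest value of most of these genes. Of the 83 genes, 50 (60.2%) were lowest in liver, against 38.0% of all loci. Only 6 were highest there (Dnmt3a, Suz12, Smarca1, Arid3a, Arid4a and Kdm5d), at a background of 26.4%. The highest value fell in foregut for 17 genes (background 12.5%), medial foregut for 7 (15.3%), dorsal pancreas for 28 (21.3%) and ventral pancreas for 25 (24.5%). Liver was below both pancreatic libraries, by any amount, for 64 of 83 genes (77.1%), against 49.4% of all loci. These differences were mostly small. The median difference was -0.40 from ventral and -0.49 from dorsal pancreas, against -0.11 from each over all loci. How libraries are scaled moves these counts. Scaled to the median ratio, the median over all loci shifted by 0.23 and 0.21 in the 2 differences, and 50 of 83 genes (60.2%) lay below both pancreatic libraries against 35.5% of all. Scaled to equal total FPKM, it was 69 genes (83.1%) against 57.5%. The medians of the set stayed below those of all loci under both, at -0.16 and -0.27 against 0.12 and 0.10 by median ratio.

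**Figure D3:**
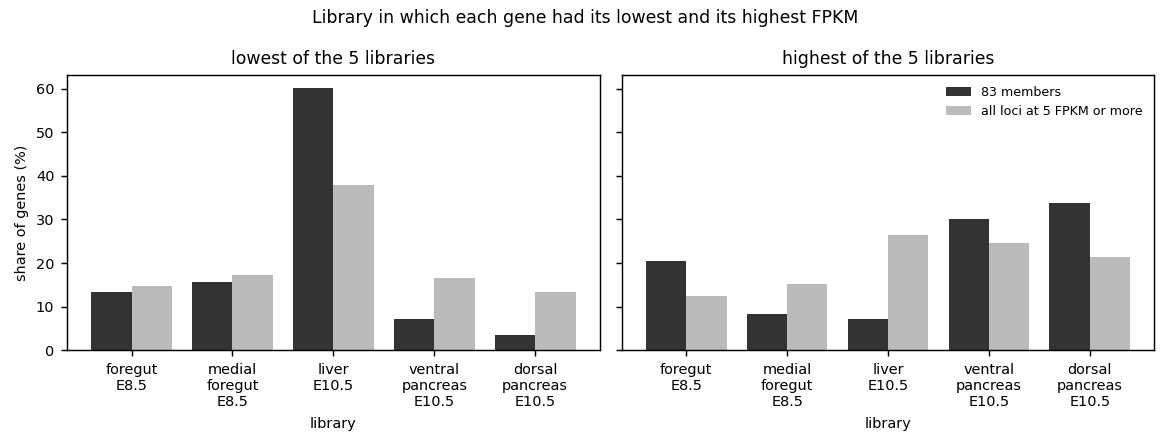
Share of genes (vertical axis, percent) whose lowest (left) or highest (right) FPKM fell in each library, for the 83 chromatin regulators (dark) and all 8768 loci at 5 FPKM or more (light). Liver holds the lowest value of 60.2% of the regulators and 38.0% of all loci, and the highest value of 7.23% and 26.4%.

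Counts by family are read against the shares with liver below both pancreatic libraries, 77.1% of the set and 49.4% of all loci. With 1 to 14 genes in a family, they do not rank the families. All 12 SWI/SNF subunits, 12 of 14 demethylases, 5 of 5 sirtuins, 3 of 3 heterochromatin protein 1 genes, 7 of 7 PRDM genes and 3 of 3 of the BET proteins and Brd1 were below both pancreatic libraries in liver, and 0 of 3 DNA methyltransferases were. By median ratio these counts were 8, 10, 5, 3, 6, 1 and 0, where the shares were 60.2% of the set and 35.5% of all loci. Of the other families, 5 of 8 deacetylases, 5 of 7 SETD genes, 4 of 5 other SNF2-type genes, 3 of 6 CHD genes, 2 of 5 other ARID genes, 2 of 4 PRC2 subunits and 1 of 1 Polycomb chromobox gene were below both. Median-ratio scaling gave 4, 3, 2, 3, 2, 2 and 1 for them. The median of the PRC2 subunits from dorsal pancreas was -0.10 as deposited and 0.10 by median ratio, so no direction is given for that family. The same holds for the other SNF2-type genes (-0.14 and 0.09 from dorsal pancreas) and, from ventral pancreas, the SETD genes (-0.24 and 0.01) and the BET proteins with Brd1 (-0.23 and 0.03). By equal total FPKM the median from dorsal pancreas turned from 0.09 to -0.10 for the DNA methyltransferases and from 0.17 to -0.01 for the other ARID genes. The hepatic, leukocyte and cardiomyocyte sums were higher in liver than in both pancreatic libraries (for the 3 leukocyte markers found, 63.7 FPKM against 2.27 and 4.52), and their part in these results was not tested.

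**Figure D4:**
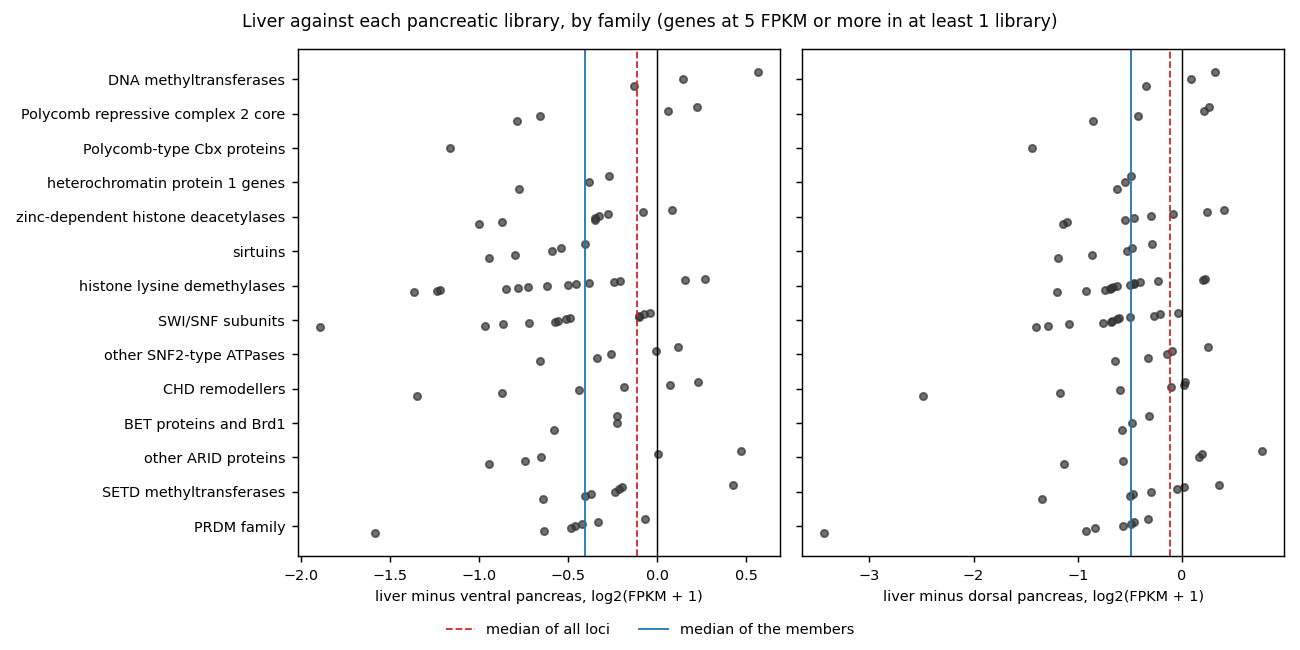
Difference of log2(FPKM + 1) between liver and ventral (left) or dorsal pancreas (right), 1 point per gene at 5 FPKM or more in at least 1 library, by family. The solid line is the median of the 83 genes (-0.40 and -0.49), the dashed line that of all loci (-0.11 in both), and no SWI/SNF point lies above 0.

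By the counting rule, 3 genes were lower in liver than in both pancreatic libraries, at a background of 7.11%, and none was higher, at a background of 4.16%. They were Smarca2 (-1.40), Chd3 (-1.35) and Cbx2 (-1.16). Cbx2 was no longer counted with median-ratio scaling (-0.92) or a pseudocount of 5 FPKM (-0.98), nor Chd3 with that pseudocount (-0.96). Smarca2 encodes BRM, an ATPase of SWI/SNF, and measured 11.4, 14.7, 9.13, 36.6 and 25.7 FPKM. Both pancreatic libraries were above all 3 other libraries. Its paralogue Smarca4 (BRG1) measured 87.1, 76.9, 72.9, 78.4 and 111 FPKM and exceeded Smarca2 in every library. Smarca2 made up 11.5%, 16.1%, 11.1%, 31.8% and 18.8% of the pair. Smarca2 lies on chromosome 19, 26679553 to 26852812 (plus strand, mm9).

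Of the other exchangeable SWI/SNF subunits, Smarcd3 had the stage difference given above. Smarcc1 measured 78.8, 63.9, 46.3, 66.6 and 78.7 FPKM. Smarcc2, which replaces Smarcc1 in differentiated forms of the complex, measured 28.4, 26.3, 20.7, 38.6 and 44.8 FPKM. The share of Smarcc2 in the pair lay between 26.5% in foregut and 36.7% in ventral pancreas. The Smarcc2 locus covers 159% of the annotated span and overlaps the joined locus of Myl6 and Myl6b, so its values may hold reads of other genes. Arid1a, the DNA-binding subunit of the BAF form, measured 67.7, 72.6, 49.5, 74.3 and 79.9 FPKM. The Arid1b locus covers 0.0996% of the annotated span, 352 bp, and its 6.998 to 18.5 FPKM describe that stretch alone. The core subunit Smarcb1 kept within 81.5 to 94.8 FPKM. Smarce1, which binds DNA through an HMG box, ranged from 59.9 in liver to 92.5 in dorsal pancreas. Arid2 ranged from 16.0 to 27.0 FPKM and Brd9, at a locus that overlaps Trip13, from 13.5 to 16.4.

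**Figure D5:**
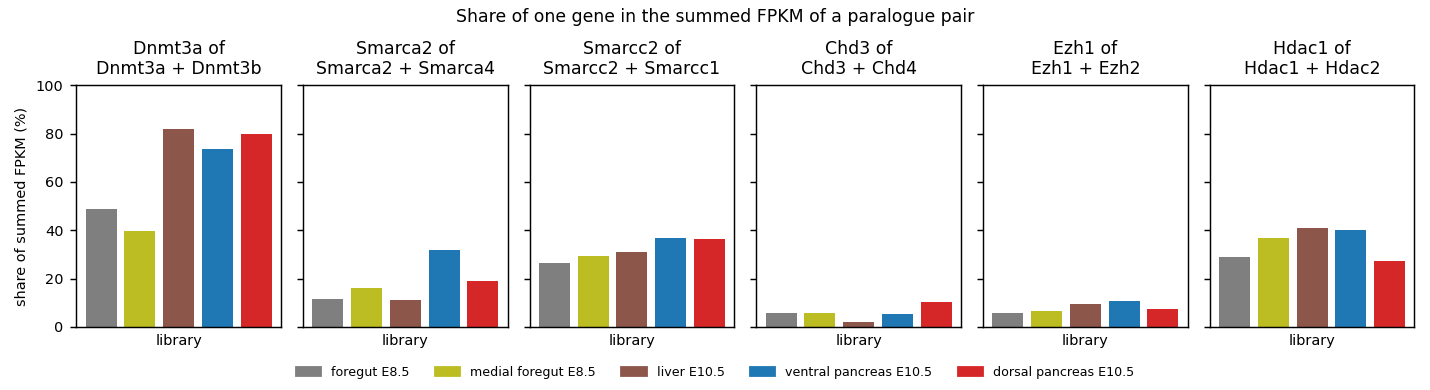
Share (percent, from 0 to 100) of the first-named gene in the summed FPKM of 6 paralogue pairs, 1 bar per library. Dnmt3a makes up 39.8% to 48.6% at E8.5 and 73.6% to 82.1% at E10.5, Smarca2 is highest in ventral pancreas at 31.8%, and Chd3 in dorsal pancreas at 10.48%.

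Chd3 had the widest spread of the CHD family. This NuRD ATPase measured 18.0, 16.1, 5.32, 15.1 and 34.3 FPKM, so that dorsal pancreas was above and liver below every other library. Chd4, its abundant paralogue, measured 286, 259, 272, 259 and 293 FPKM. Chd3 made up 5.92%, 5.86%, 1.92%, 5.50% and 10.48% of the pair. Chd5, known from neurons and testis, stayed between 0.497 and 1.68 FPKM at a locus covering 14.1% of the gene. Chd1, which binds methylated lysine 4 of histone H3, ranged from 15.0 to 25.7 FPKM, Chd1l from 15.2 to 17.9 and Chd9, at a locus with 20.4% of the span, from 3.77 to 6.64. Chd3 lies on chromosome 11, 69156665 to 69182926 (minus strand, mm9).

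Ventral and dorsal pancreas differed in 3 genes: 1 was higher in ventral, at a background of 4.40%, and 2 were lower, at 3.31%. Arid5b, a partner of a histone demethylase, was the one higher, at 4.10, 4.51, 5.74, 9.61 and 2.94 FPKM (1.43). Prdm1 encodes BLIMP1, a transcriptional repressor of germ cell and lymphocyte development. It measured 2.14, 5.52, 0.183, 0.627 and 11.8 FPKM, lower in ventral pancreas by a difference of -2.98. Chd3 was the other, with -1.13. With a pseudocount of 5 FPKM neither Arid5b (0.88) nor Chd3 (-0.97) was counted. Prdm1 and Chd3 were highest in dorsal pancreas of all libraries. The 9 mesenchyme markers summed to 237 FPKM there and 56.4 in ventral pancreas, and the 12 neural markers to 57.8 and 22.0, with 1 of the neural markers at 0 in dorsal pancreas. Barx1 alone held 89.3 of the 237 FPKM, and Pax6 held 26.2 of the 57.8. Some markers went the other way from dorsal to ventral, among them Col1a1 (15.7 and 20.8), Prrx1 (0.589 and 2.33) and the neural Dcx (2.58 and 3.42). By the counting rule, 5 mesenchyme and 3 neural markers were lower in ventral and 0 were higher. The 7 endothelial markers found summed to 50.7 FPKM in dorsal and 26.4 in ventral pancreas. Of them, 4 were counted as lower in ventral and 1 as higher. The higher one was Flt1, whose ventral value was 14.3 FPKM against a dorsal value of 2.17. The sum of the 8 endoderm and epithelium markers was smaller in dorsal than in ventral pancreas, at 298 and 614, with 4 counted as higher in ventral. The 3 germ cell markers found summed to 16.2 and 33.4, mostly from Kit at 13.8 and 28.8, with Nanos3 and Ddx4 under 5 FPKM. The part of these cell types in the results was not tested. Prdm1 lies on chromosome 10, 44156984 to 44248285, and Arid5b on the same chromosome, 67555271 to 67741709 (both minus strand, mm9).

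Between the E8.5 libraries, 1 gene was lower in foregut than in medial foregut, at a background of 0.365%, and none was higher, at a background of 0.604%. This was Prdm1, at 2.14 against 5.52 FPKM, a difference of -1.05. Its difference was under 1 with a pseudocount of 5 FPKM (-0.56) and with equal total FPKM (-0.94). Prdm13, at 4.36 and 1.28 FPKM, differed by more, 1.23, but lay under the 5 FPKM minimum. Smarcd3 and Arid3b differed by -0.85 and -0.70, under the size counted.

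The PRC2 subunits, which methylate histone H3 at lysine 27, were all expressed. The catalytic subunit Ezh2 measured 95.5, 79.3, 45.5, 72.4 and 82.8 FPKM and was lowest in liver. Its less active paralogue Ezh1 measured 5.80, 5.41, 4.68, 8.80 and 6.60 FPKM and made up 5.7% to 10.8% of the pair. The partners Eed, at 48.2, 45.8, 46.3, 39.6 and 39.9 FPKM, and Suz12, at 50.6, 47.5, 60.5, 57.9 and 50.3 FPKM, did not share the low liver value of Ezh2. The 12 proliferation markers found, a state in which Ezh2 is known to be high, summed to 1182, 1020, 910, 836 and 927 FPKM, and their part in the Ezh2 values was not tested. Ezh2 lies on chromosome 6, 47479946 to 47545376 (minus strand, mm9).

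The heterochromatin protein 1 genes, readers of methylated lysine 9 of histone H3, were lowest in liver in all 3 cases. Cbx1 measured 144, 132, 97.8, 128 and 138 FPKM, Cbx5 ranged from 53.4 to 78.6 and Cbx3 from 7.53 to 13.6. The Cbx3 and Cbx5 loci each overlap another locus.

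Among the deacetylases, Hdac2 measured 124, 122, 98.4, 123 and 136 FPKM. Its partner in NuRD and other corepressor complexes, Hdac1, measured 51.0, 71.1, 68.2, 82.8 and 51.3 FPKM at a locus that overlaps another. Hdac1 made up 29.1%, 36.7%, 40.9%, 40.1% and 27.5% of the pair. Hdac6, a mainly cytoplasmic tubulin deacetylase, was highest in ventral pancreas, at 48.1 FPKM against 24.7 to 37.5 elsewhere. Hdac3 ranged from 50.4 to 70.7 FPKM, Hdac5 from 13.8 to 27.4, Hdac7 from 7.05 to 16.8, Hdac11 from 4.78 to 11.4 and Hdac4 from 3.43 to 6.02. Hdac9 was at 2.20 and 2.21 FPKM at E8.5 and at 0.308 to 0.619 at E10.5, under the 5 FPKM minimum. The sirtuins, which deacylate proteins with NAD, were led by Sirt2 at 17.1 to 25.0 FPKM. Sirt6 ranged from 8.55 in liver to 20.7 in dorsal pancreas, and the mitochondrial Sirt4 and Sirt5 from 3.34 to 7.80 and 2.77 to 7.10. The Sirt1 locus, at 11.02 to 21.0 FPKM, covers 1.26% of the gene.

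Of the demethylases, Kdm1a, which acts on lysine 4 of histone H3, was the most abundant, at 61.0, 57.0, 49.8, 58.9 and 66.2 FPKM. Its locus covers 255% of the annotated span and overlaps Luzp1. Kdm6a, an X-linked demethylase of lysine 27 that opposes PRC2, measured 26.0, 27.0, 18.0, 47.8 and 25.7 FPKM, with ventral pancreas above all others. Kdm3a, which acts on lysine 9, measured 37.3, 30.6, 16.9, 41.2 and 27.3 FPKM. Both were lowest in liver and highest in ventral pancreas. Kdm5b, a lysine 4 demethylase, followed the same order at its ends, with 14.7 FPKM in liver and 35.6 in ventral pancreas. Kdm2b, which brings Polycomb to CpG islands, ranged from 17.9 in liver to 38.2 in foregut, and Kdm4a from 12.9 in liver to 31.0 in dorsal pancreas. The X-linked Kdm5c measured 37.4, 33.2, 25.6, 29.7 and 35.6 FPKM, and the Y-linked Kdm5d 4.85, 4.47, 7.86, 6.36 and 6.57. Kdm5d was thus present in every library, and its share of the pair was 11.5%, 11.9%, 23.5%, 17.7% and 15.6%. The sexes of the embryos are not given in the labels. The other 6 demethylases lay between 3.74 FPKM (Kdm4c in liver) and 36.2 (Kdm2a in ventral pancreas), and Kdm5a was read from a locus with 4.73% of the gene's span.

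Of the BET proteins, which bind acetylated histones, Brd2 was the most abundant at 67.0 to 88.0 FPKM, with Brd3 at 43.4 to 61.0. Brd1, a scaffold of a histone acetyltransferase complex, ranged from 19.8 to 30.1. All 3 were lowest in liver as deposited, but by median ratio only 1 of them was below both pancreatic libraries there. Among the SETD genes, Setd8, which methylates lysine 20 of histone H4, measured 70.8, 66.5, 46.9, 34.6 and 46.3 FPKM. Setd5 ranged from 38.4 to 58.5 FPKM, Setd3 from 31.0 to 39.0, the lysine 9 methyltransferase Setdb1 from 24.4 to 31.0, the lysine 36 methyltransferase Setd2 from 17.8 to 24.9 and Setd4 from 3.45 to 7.35. Among the ISWI and other SNF2-type genes, Smarca5 measured 119, 89.6, 87.1, 87.6 and 96.1 FPKM. Its paralogue Smarca1 was lowest in foregut at 12.2 and highest in liver at 21.1. Smarcad1 ranged from 16.2 to 26.2 FPKM and Smarcal1 from 10.9 to 14.4. The pseudogene locus Smarca5-ps, at 5.64 to 7.79 FPKM, is a near copy of Smarca5, and reads of the 2 may have been split between them. This locus covers 2730% of the pseudogene's annotated span.

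Several PRDM genes were listed at or near 0. Prdm4 was its most abundant member, at 25.1, 23.6, 19.0, 24.1 and 26.6 FPKM, and Prdm2, Prdm10 and Prdm15 lay between 4.60 and 24.4. Prdm13, known from spinal cord neurons, measured 4.36 and 1.28 FPKM at E8.5 and at most 0.0186 at E10.5, where ventral pancreas was listed at 0. Prdm8, known from the nervous system and read from 4.98% of its span, was at 1.75 and 0.654 FPKM at E8.5 and at most 0.0842 later. Prdm12, known from sensory neurons, lay between 0.574 and 0.978 FPKM at E8.5 and was listed at 0 in all 3 E10.5 libraries. All 3 were highest in foregut, where the neural markers summed to 162 FPKM, against 68.0 in medial foregut, 57.8 in dorsal and 22.0 in ventral pancreas, and 9.36 in liver. The sums in dorsal pancreas and medial foregut were close but rested partly on different genes. Pax6 and Tubb3 measured 26.2 and 13.1 FPKM in dorsal pancreas, against 20.0 and 5.66 in medial foregut. Sox1 and Sox2 went the other way, at 0.0754 and 0.464 against 7.04 and 13.4. The part of the neural markers in the values of Prdm13, Prdm8 and Prdm12 was not tested. Prdm9, the meiotic recombination factor, stayed between 1.15 and 2.52 FPKM and Prdm11 between 1.37 and 4.17. Among the ARID genes outside SWI/SNF, Arid3c measured 3.06 FPKM in both E8.5 libraries and at most 0.133 at E10.5, where liver was listed at 0, Arid3a ranged from 24.5 to 36.0, Arid4a from 4.19 to 5.91, Arid4b from 10.7 to 19.3 and Arid5a, at a locus with 9.37% of the span, from 0.713 to 1.42.

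Other chromatin genes, from lists of further Polycomb subunits, histone methyltransferases and acetyltransferases, remodelling and deacetylase partners and DNA methylation readers, were counted by the same rule. Of 91 listed genes 63 were found and 62 reached 5 FPKM. Against both pancreatic libraries liver had 0 higher (background 4.16%) and 3 lower (7.11%), Pcgf2, Myst4 and Zfp57. Pcgf2, which like Cbx2 belongs to Polycomb repressive complex 1, measured 26.4, 22.8, 13.2, 28.6 and 31.8 FPKM. In all 3 E10.5 libraries 0 were higher than at E8.5 (0.981%) and 1 was lower (2.34%), Pcgf5, another such subunit, at 14.2, 22.1, 3.34, 4.72 and 3.71 FPKM. Ventral against dorsal pancreas gave 0 higher (4.40%) and 1 lower (3.31%), Dpf1, a SWI/SNF subunit known from neurons, at 5.37, 5.92, 4.46, 3.27 and 14.1 FPKM. Dpf1 and Chd3 were thus both highest in dorsal pancreas. Against both E8.5 libraries, liver had 0 higher (6.98%) and 3 lower (8.29%), Pcgf5, Sap30 and Zfp57. Ventral pancreas had 0 higher (8.37%) and 1 lower (4.45%), Pcgf5. Dorsal pancreas had 2 higher (5.76%), Myst4 and Dpf1, and 1 lower (3.84%), Pcgf5. Foregut against medial foregut gave 0 in either direction (0.604% and 0.365%).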

How the data were processed

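Poly(A) RNA was fragmented, primed with random hexamers and sequenced as paired ends, per the labels' protocols, which describe no strand marking. The authors deposited 1 table of FPKM values in 5 columns, per the file headers. Cufflinks 1.3.0, TopHat 1.33 and the build mm9 appear in the submitters' processing notes. The sources used here give neither their roles nor the scaling between libraries. Columns were matched to tissues by the name each sample's label repeats. No value column was left unmatched. Of 14053 loci, 1678 had no name and 731 had joined names, and neither entered the comparisons.

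A search of low values for steps of 1 read found none. Only 5 of 220 loci shared the most common ratio between the E8.5 libraries, so no counts were recovered and depth in reads is unknown. An exact 0 is given as listed at 0.

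Differences of log2(FPKM + 1), with a pseudocount of 1, were counted at 1 or more with at least 5 FPKM on the higher side, in Python 3.11.15 with pandas 2.3.3, numpy 2.4.6 and matplotlib 3.10.9. The counting code was run on simulated libraries without noise and with known changes. That run checks the code alone and not how often a count is false with 1 library per tissue. The text names every counted gene of the set, the most abundant gene of each family, the DNA methylation and PRC2 genes and paralogue groups, with the rest given by range. The members and lists were chosen with earlier results of these data known. Demethylases and other genes given with values beyond that rule, and the genes of the other lists, were singled out after their values were seen. The pseudocount, the 5 FPKM minimum, the scaling and the doubtful loci were varied.

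Of the 97 genes the rule found, 3 are not reported here and enter no count of the set. Symbols were current for 93 genes and matched by synonym for 1. In 7 genes the locus covers under 30% of the span in GENCODE M21 (GRCm38), none lies on the other strand, and 14 overlap another locus. Locus coordinates are those of the table (mm9), and whether starts count from 0 or 1 is not stated there. Promoters are from RefSeq (GRCm38.p6).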

Additional observations from a re-analysis of the deposited data

Results flagged for a closer look

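Chd3 lay above both E8.5 libraries in dorsal pancreas, by 0.90 at the least, and below both in liver, by -1.44. The gap between dorsal pancreas and liver was 2.48 on the log2(FPKM + 1) scale. Smarca2 lay above both E8.5 libraries in ventral pancreas, by 1.26, and below both in liver, by -0.29, a gap of 1.89. Each was picked out because 2 tissues of one age lay on opposite sides of the same E8.5 libraries and at least 1 of these differences passed the counting rule. Without the second condition, 37 of 83 genes qualified. The largest gap among them was that of Prdm1, 3.44, with a difference of 0.98 for dorsal pancreas and -1.41 for liver from the nearer E8.5 library, neither difference being counted. With 1 library per tissue the difference was not tested.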

How the results depend on the processing

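No paired analysis was possible because each tissue is 1 library and no comparison rests on a test. Of 73 recomputed counts, 58 stayed within 1.5 times the value reported and 15 did not. None of the single-gene differences changed direction. With a pseudocount of 5 FPKM the count fell from 3 to 1 for genes lower in liver than in both pancreatic libraries, and from 1 to 0 for genes higher and from 2 to 1 for genes lower in ventral than in dorsal pancreas. It also fell from 4 to 2 for genes lower than at E8.5 in ventral and in dorsal pancreas, and from 1 to 0 for foregut below medial foregut. Without the 5 FPKM minimum, counts of genes lower than at E8.5 were 11 in liver, 7 in ventral pancreas and 5 in all 3 libraries, 1 (Prdm16) was higher in dorsal pancreas, and 1 (Prdm13) was higher in foregut than in medial foregut. With equal total FPKM, 8 genes were lower in liver than in both pancreatic libraries, 0 were higher in liver and 1 (Prdm1) was higher in dorsal pancreas than at E8.5, and 0 were lower in foregut than in medial foregut. Of 28 single-gene differences, 11 were no longer counted with the larger pseudocount, 2 with equal totals and 2 with median-ratio scaling, and 0 without the minimum. Dnmt3a in liver then measured 0.97 with equal totals and Dnmt3b -0.98 with median-ratio scaling, both just under 1. As alternatives chosen after seeing the data, the genes lowest in liver numbered 56 of 83 (67.5%, against 42.5% of all loci) with equal totals, 39 (47%, against 27.1%) with median-ratio scaling and 47 of 79 (59.5%) without doubtful loci. The cause of these shifts was not tested.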
